A study of Mus musculus with 23 samples.

Results

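Nuclear genes that encode the subunits of oxidative phosphorylation were followed across 23 hippocampal RNA-seq libraries. The members were chosen by gene symbol (Nduf with a subunit letter and number, Sdha to Sdhd, Uqcr and Uqcc, Cox4 to Cox8, and Atp5) and by a mean level above 5 CPM (counts scaled to the same total of gene counts, 1e6, in every library). Of 55335 genes counted, 100 carried such a symbol, 92 of these were not marked as pseudogenes by their symbol, and 78 passed the level. Complex I gave 35 members, complex II 4, complex III 11, complex IV 12 and complex V 16.

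The respiratory chain sits in the inner mitochondrial membrane. Complexes I and II take electrons from NADH and succinate, complex III passes them to cytochrome c, complex IV hands them to oxygen, and complex V, the ATP synthase, uses the resulting proton gradient to make ATP. A few subunits are encoded by the mitochondrial genome and all others by nuclear genes, and neurons depend on this pathway for most of the ATP that synaptic activity consumes.

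The libraries came from hippocampi of female mice, 1 animal per library. The 3xTg mice carry human APPSwe and tauP301L transgenes driven by the neuronal Thy1.2 regulatory element, and the WT mice were C57BL/6J x 129S1. At the age of 8 months, untreated animals of each strain gave 4 libraries (groups WT-8M and 3xTg-8M). At 10 months, animals had received a 28-day infusion into the cerebral ventricle. The pump held either the stearoyl-CoA desaturase inhibitor ab142089 at 80 µM (SCDi; WT-S, n = 3, and 3xTg-S, n = 4) or 0.8% DMSO vehicle (WT-D, n = 4, and 3xTg-D, n = 4), and the SCDi pumps held the same amount of DMSO. Stearoyl-CoA desaturase turns saturated into monounsaturated fatty acids.

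Depth ran from 12802267 to 36686413 gene counts per library, and replicate libraries correlated at r of 0.988 to 0.996 on log2(CPM + 1) across genes above 1 CPM. Thy1, whose regulatory element drives the transgenes, was at 1323 to 2263 CPM in every 3xTg library and at 522 to 753 CPM in every WT library. All 5 markers of hippocampal principal neurons (Prox1, Wfs1, Cabp7, C1ql2 and Neurod6) and all 6 general neuronal markers were detected in every group. Summed choroid plexus markers, which mark tissue of the ventricle wall, ranged from 28.0 to 353 CPM among single libraries. In bulk tissue, fewer cells of a type and less RNA per cell cannot be told apart.

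The members were short, abundant transcripts. Their median transcript length was 744 nt (range 315 to 3171 nt), and together they took 0.882% to 1.18% of gene counts in a library. Levels per kb of transcript had a median of 98.7 CPM per kb. Atp5b, the catalytic beta subunit of ATP synthase, was highest at 558 CPM per kb, followed within complex V by Atp5a1, its alpha partner, at 351 CPM per kb. Complex IV had the highest median of the complexes, 240 CPM per kb, led by Cox4i1 at 485 and Ndufa4 at 461 CPM per kb, while complex I lay lower and in a narrower range, with a median of 86.3 CPM per kb and a maximum of 147 CPM per kb in Ndufc1. In complex II, Sdha, the flavoprotein that oxidizes succinate, was at 145 CPM per kb, Sdhb at 100.4, Sdhd at 64.1 and Sdhc at 23.3 CPM per kb. In complex III, the hinge protein Uqcrh was highest at 288 CPM per kb and the assembly factor Uqcc3 lowest at 15.1 CPM per kb.

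Where a subunit has isoforms, a single isoform carried most of the counts. Cox4i1 stood at 361 CPM against 0.753 CPM for Cox4i2, Cox6a1 at 181 against 1.39 CPM for the heart and muscle form Cox6a2, and Cox6b1 at 168 against 1.48 CPM for Cox6b2. Cox7b was at 159 CPM and Cox7b2 at 0.761 CPM, Cox8a at 198 and Cox8b at 0.145 CPM, and Cox8c was listed at 0 in all libraries. Cox7a2 was at 148 CPM and its muscle form Cox7a1 at 0.814 CPM. Of the 3 genes for the membrane c ring of ATP synthase, which encode the same mature protein, Atp5g3 was at 203 CPM, Atp5g1 at 22.6 and Atp5g2 at 1.45 CPM. Ndufa4, a complex IV subunit, was at 208 CPM and its hypoxia-induced relative Ndufa4l2 at 1.29 CPM. The last 4 members inside the threshold were Ndufb4 at 6.62, Cox7c at 8.35, Uqcc3 at 12.4 and Ndufs5 at 15.9 CPM, and the next genes outside it were Cox6b2 and Atp5g2. Ndufb1-ps, at 61.5 CPM, was left out because of its symbol although the table annotates it as coding.

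Several low members share sequence with other genes, so that reads from the shared stretches can be divided between genes or left out by the counting. Windows of 75 bases that also occur in a transcript of another gene made up 76% of the windows of Atp5l, 50.4% of those of Cox7c and of Atp5g1, 40.3% of Atp5h, 39.1% of Atp5o and 35.2% of Ndufb4, whereas 43 members shared none. The levels of these 6 members are uncertain for this reason.

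RefSeq promoter windows (GRCm38.p6, from 250 bases before to 50 after the annotated start) matched 66 of the 78 members, Atp5f1 under its newer symbol Atp5pb, in 71 windows. The other 12 members, among them Atp5a1, Cox4i1, Cox6c, Sdhc, Uqcrb, Uqcrc2 and Uqcrq, had no window there. Letters of 4 factors known to act on respiratory genes were searched on both strands, with no overlap between different motifs in the members' windows. GCATGCGC (nuclear respiratory factor 1) stood in 9 member windows (12.7%) and in 2.71% of all 32851 windows. AAGATGGC (YY1) stood in 11 member windows (15.5%) against 2.75% of all, CCGGAAGT (the ETS family, which includes GABP) in 5 (7.04%) against 3.89%, and TCAAGGTCA (estrogen-related receptors) in 2 (2.82%) against 0.423%. For each motif the window of the member with the smallest p in the SCDi comparison over both strains is shown, 5′ to 3′ on the strand of the gene, with the motif in capitals. The Atp5k window (chr5:108434350-108434649, minus strand) holds overlapping NRF1 letters on both strands. The Uqcrh window (chr4:116075021-116075320, minus strand) holds the ETS letters on the opposite strand just before the start, the Atp5j2 window (chr5:145191492-145191791, minus strand) holds the YY1 letters downstream of the start, and the Atp5g3 window (chr2:73911277-73911576, minus strand) holds the estrogen-related receptor letters upstream on the opposite strand.
Atp5k: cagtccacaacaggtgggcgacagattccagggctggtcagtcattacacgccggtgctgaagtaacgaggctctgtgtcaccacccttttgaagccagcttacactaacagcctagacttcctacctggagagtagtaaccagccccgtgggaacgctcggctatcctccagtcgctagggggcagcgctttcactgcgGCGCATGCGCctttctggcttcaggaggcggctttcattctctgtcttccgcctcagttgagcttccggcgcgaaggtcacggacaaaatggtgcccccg
Uqcrh: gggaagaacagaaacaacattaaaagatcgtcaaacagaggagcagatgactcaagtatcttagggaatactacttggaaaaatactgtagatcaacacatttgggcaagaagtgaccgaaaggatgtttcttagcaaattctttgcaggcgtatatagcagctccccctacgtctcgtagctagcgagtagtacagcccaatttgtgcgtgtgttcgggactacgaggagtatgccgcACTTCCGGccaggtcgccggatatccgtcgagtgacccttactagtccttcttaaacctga
Atp5j2: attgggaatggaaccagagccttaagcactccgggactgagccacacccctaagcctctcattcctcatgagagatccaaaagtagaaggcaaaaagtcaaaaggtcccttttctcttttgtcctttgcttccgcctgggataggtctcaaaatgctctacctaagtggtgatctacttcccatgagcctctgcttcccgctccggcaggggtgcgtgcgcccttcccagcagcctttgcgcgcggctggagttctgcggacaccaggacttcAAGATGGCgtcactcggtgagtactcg
Atp5g3: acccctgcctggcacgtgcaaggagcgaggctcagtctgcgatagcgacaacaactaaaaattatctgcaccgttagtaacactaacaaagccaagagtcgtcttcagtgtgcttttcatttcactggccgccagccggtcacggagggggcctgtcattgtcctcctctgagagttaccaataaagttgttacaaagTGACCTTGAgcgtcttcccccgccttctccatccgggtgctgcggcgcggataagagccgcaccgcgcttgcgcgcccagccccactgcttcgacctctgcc
YY1 letters began after the annotated start in 9 of the 11 members that held them, among them Atp5j2, Ndufs4, Ndufs7 and Ndufc1. A match gives the letters only and is not evidence that a factor binds there.

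Before the comparisons, the members' level in single libraries is given, since a few libraries stood apart. For each library the median over the 78 members of log2 CPM, centred on each gene's mean over all libraries, was taken. It lay between -0.18 and 0.11 in 21 libraries, and reached 0.39 in 3xTg-8M replicate 4 and 0.28 in 3xTg-S replicate 2. In these libraries 76 and 73 of 78 members were above their own mean, whereas 3xTg-D replicate 2, the lowest library at -0.18, had 1 of 78 above it. The same libraries stood apart in genes that are not members: the slope of centred log2 CPM on log2 transcript length was -0.11 in 3xTg-8M replicate 4 and -0.092 in 3xTg-S replicate 2, between -0.036 and 0.035 in 19 libraries, and 0.044 in 3xTg-D replicates 2 and 3. Libraries with 1 slope could differ in the median: 3xTg-D replicate 3 had the slope of replicate 2 with a median of -0.11. The share of counts assigned to no gene was also highest in 3xTg-8M replicate 4 (30.9%) and 3xTg-S replicate 2 (27.5%), against 24.7% to 26.7% in the other libraries, and its part in the members' values was not tested. The count of members in each comparison is also given after a length and GC trend, fitted per library on genes that are not members, was removed.

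**Figure D1:**
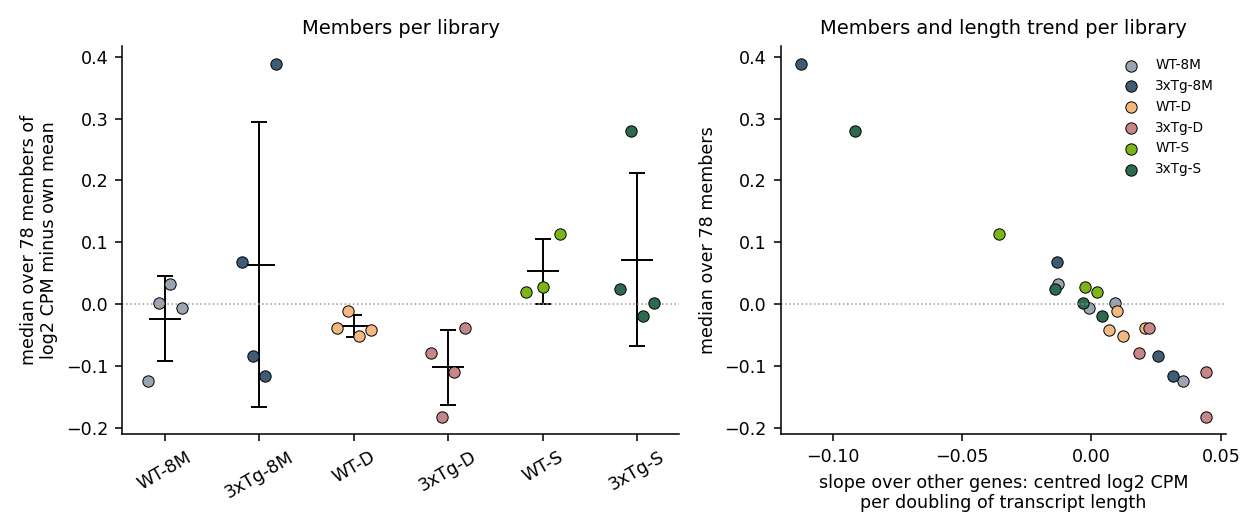
Left, the median over the 78 members of log2 CPM minus each gene's mean over all 23 libraries, 1 point per library, with group mean and SD as bars. Right, the same medians against the slope of centred log2 CPM per doubling of transcript length over genes that are not members; 3xTg-8M replicate 4 (0.39) and 3xTg-S replicate 2 (0.28) lie at the upper left and 3xTg-D replicate 2 (-0.18) at the lower right.

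The first comparison asked how the untreated 3xTg hippocampus differed from WT at 8 months. Of the 78 members, Cox7c, a small complex IV subunit, was the only 1 called at an adjusted p under 0.05 (edgeR quasi-likelihood test, Benjamini-Hochberg adjustment over all genes), where 2.58% of all genes tested were called. Cox7c (ENSMUSG00000017778.14, chromosome 13, 86044816 to 86046904) was at 9.43, 7.76, 11.6 and 9.93 CPM in WT-8M and at 5.96, 6.56, 6.83 and 6.84 CPM in 3xTg-8M. Every 3xTg-8M library lay below every WT-8M library. Its log2 fold change was -0.57 ± 0.13 (SE), with an adjusted p of 0.042 that rose to between 0.052 and 0.15 when any library other than WT-8M replicate 2 was left out.

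Most other members had small positive differences at 8 months that rested on a single library. The members' median log2 fold change was 0.11, 69 of 78 were positive, 4 were higher at an unadjusted p under 0.05 against 8.55% of all genes, and 1 was lower against 8.82%. The 4 were Ndufs7, a core subunit that carries an iron-sulfur cluster (0.28 ± 0.10, adjusted p = 0.19), Ndufs5, Atp5d and Sdhd, and none of them passed adjustment. With the length and GC trend removed, 8 were higher (10.3%) against 9.17% of all genes, 1 was lower against 7.74%, and the median was 0.057, and without 3xTg-8M replicate 4 the median was -0.013.

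The second comparison set vehicle-infused 3xTg against vehicle-infused WT at 10 months. Cox7c was again the only member called, at 12.4, 13.4, 8.62 and 9.28 CPM in WT-D and 5.27, 4.56, 5.30 and 5.02 CPM in 3xTg-D. The groups did not overlap, and the log2 fold change was -1.13 ± 0.15 (adjusted p = 0.0021), where 1.39% of all genes were called. It stayed under the threshold in every alternative, with a highest adjusted p of 0.014.

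Most members were lower: 69 of 78 were negative, with a median log2 fold change of -0.078. Signs at 8 months were mostly opposite, but that median was -0.013 without 3xTg-8M replicate 4, and age and infusion differ between the comparisons. At an unadjusted p under 0.05, 18 were lower, or 23.1% against 6.87% of all genes, and 0 were higher against 6.25%. Complex IV held 6 of the 18 among its 12 members and had the lowest median, -0.13, while the 4 SDH subunits had a median of 0.015 and none passed. Cox4i1, the ubiquitous form of complex IV subunit, was at 353, 374, 365 and 380 CPM in WT-D and at 329, 311, 336 and 335 CPM in 3xTg-D. The groups did not overlap, with a log2 fold change of -0.18 ± 0.045 and an adjusted p of 0.083 that missed the threshold. Ndufb9 (-0.19 ± 0.050, adjusted p = 0.10), Cox5a (-0.19 ± 0.052, adjusted p = 0.11) and Cox7a2l, a factor that joins complexes III and IV into supercomplexes (-0.25 ± 0.074, adjusted p = 0.15), followed. With the length and GC trend removed, 63 of 78 were negative with a median of -0.058, 16 were lower at an unadjusted p under 0.05 (20.5%) against 8.76% of all genes, and 1 was higher against 5.96%. Over 14 alternatives the count of lower members ran from 4, with all 23 libraries in 1 fit, to 24. Apart from the trend removal, no share over all genes is given for these alternatives. Some cell markers differed in the same comparison. Of the 5 principal neuron markers, 3 were lower at an unadjusted p under 0.05 with a median log2 fold change of -0.25, and C1ql2 was called (-1.37 ± 0.13). Of the 5 microglial markers, 3 were higher with a median of 0.28, and C1qa was called (0.49 ± 0.11). The 2 choroid plexus markers tested were higher (median 1.42), and so was 1 of 5 astrocyte markers. No general neuronal (median -0.080), oligodendrocyte or endothelial marker passed in either direction. Of all genes, 6.25% were higher and 6.87% lower. With the trend removed 3 of the 6 neuronal markers were lower, and the counts of the other lists stayed the same. Summed over the list, principal neuron markers ran from 769.5 to 855.5 CPM in WT-D and from 700.6 to 810 CPM in 3xTg-D, and microglial markers from 207 to 237 and from 206 to 309 CPM. The part of cell composition in the members' values was not tested.

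**Figure D2:**
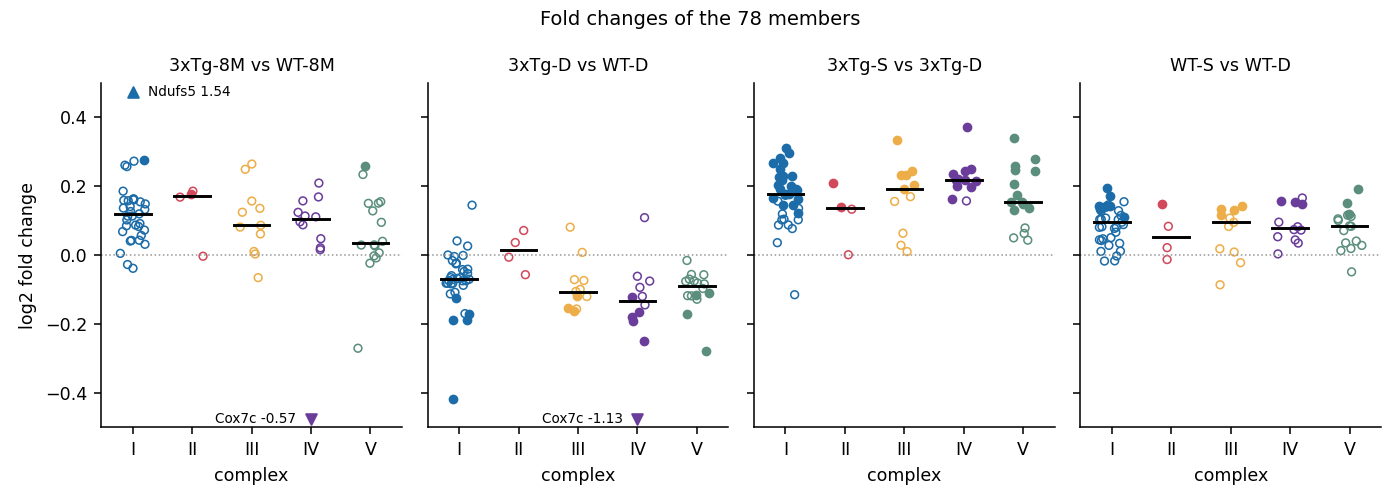
Log2 fold change of each of the 78 members by complex in 4 comparisons; filled points had an unadjusted p under 0.05, black bars are medians, and triangles mark members beyond the axis, Ndufs5 at 1.54 and Cox7c at -0.57 and -1.13. Members lie mostly above 0 in 3xTg-S vs 3xTg-D (median 0.18) and mostly below 0 in 3xTg-D vs WT-D (median -0.078).

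The third comparison asked what SCDi did in 3xTg mice. In 3xTg-S against 3xTg-D, 77 of 78 members were positive, the exception being Ndufs5, and the median log2 fold change was 0.18, or 1.14-fold. At an unadjusted p under 0.05, 54 members were higher (69.2%) against 5.65% of all genes, and 0 were lower against 5.51%. None was called at an adjusted p under 0.05 by edgeR, by which 0% of all genes were called, and none by the DESeq2 likelihood ratio test, which called 0.28% of the 4992 genes it gave an adjusted p; the smallest edgeR adjusted p was 0.38. The 3xTg-D libraries serve in both this comparison and the one with WT-D, so the opposite signs are not independent.

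The count by complex depended on the length and GC trend. Before its removal complex IV had 11 of 12 members higher at an unadjusted p under 0.05 with a median of 0.22, complex V 12 of 16 with 0.15, complex I 23 of 35 with 0.18, complex III 6 of 11 with 0.19 and complex II 2 of 4 with 0.14. After its removal the counts were 4 of 12 for complex IV (median 0.098), 3 of 16 for complex V (0.057), 5 of 35 for complex I (0.063), 1 of 11 for complex III (0.065) and 2 of 4 for complex II (0.085). The 4 peripheral stalk subunits of ATP synthase (Atp5f1, Atp5h, Atp5j and Atp5o) went from 4 to 0, and the 7 core subunits of complex I from 5 to 1. Sdha (0.0013), the assembly factor Uqcc1 (0.011) and the core protein Uqcrc2 (0.029) had the lowest log2 fold changes after Ndufs5 at -0.11.

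Uqcrq, a small subunit of complex III, had the smallest p. It was at 63.8, 57.3, 54.8 and 60.3 CPM in 3xTg-D and at 72.7, 89.4, 68.1 and 68.9 CPM in 3xTg-S, every SCDi library above every vehicle library, with a log2 fold change of 0.33 ± 0.085 (edgeR adjusted p = 0.38). Atp5j2, the f subunit in the membrane part of ATP synthase, was at 108, 98.2, 97.5 and 109.9 CPM in 3xTg-D and 123, 140.1, 119 and 115 CPM in 3xTg-S. These groups did not overlap either (0.26 ± 0.067, edgeR adjusted p = 0.38). Sdhd, the membrane anchor of complex II, was at 76.4, 73.4, 74.3 and 76.3 CPM in 3xTg-D and 81.1, 99.3, 82.6 and 86.1 CPM in 3xTg-S (0.21 ± 0.063, edgeR adjusted p = 0.38). In all 3 genes 3xTg-S replicate 2 was the highest library by a margin.

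The count fell where the short-transcript trend was removed or 3xTg-D replicate 2 was left out. The member median of this library was -0.18, the other 3xTg-D libraries lying between -0.11 and -0.038. With the length and GC trend removed, 15 members were higher (19.2%) against 3.16% of all genes and 0 lower against 2.87%, the median was 0.065, and 69 of 78 stayed positive. Without 3xTg-D replicate 2 the count was 24, and without both this library and 3xTg-S replicate 2 it was 15 with a median of 0.084. Leaving out 3xTg-S replicate 2 alone gave a median of 0.105. These fits hold fewer libraries, and no share over all genes is given for them. Other short transcripts were higher as well: 778 genes of up to 750 nt that are not members had a median log2 fold change of 0.13 against 0.20 for the 40 members of that length, and 2220 genes of 750 to 1500 nt had 0.10 against 0.19 for 23 members. Among the 54 members, the log2 fold change moved least under trend removal for Ndufv2, a core subunit of complex I (0.18 to 0.17), and Ndufs4, an accessory subunit needed for a stable complex I (0.23 to 0.21), on transcripts of 1697 and 1698 nt. It moved most for Uqcrq (0.33 to 0.15) and Uqcr11 (0.24 to 0.065), both small subunits of complex III on transcripts of 405 and 445 nt.

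In WT mice SCDi gave smaller differences in the same direction. In WT-S against WT-D, 71 of 78 members were positive with a median of 0.085, 18 were higher at an unadjusted p under 0.05 (23.1%) against 2.05% of all genes, and 0 were lower against 1.37%. No member was called by edgeR or DESeq2, each of which called 0% of all genes. Ndufb11, an X-linked accessory subunit of complex I, was at 64.5, 68.6, 62.4 and 64.9 CPM in WT-D and at 75.7, 73.8 and 76.2 CPM in WT-S. Every WT-S library was above every WT-D library (0.19 ± 0.053, edgeR adjusted p = 0.98). Atp5k, the e subunit of ATP synthase (0.19 ± 0.055), and Ndufa13, an accessory subunit of complex I (0.17 ± 0.057), followed. With the trend removed 6 members were higher (7.69%) against 1.55% of all genes, 2 were lower against 1.77%, and the median was 0.029. Without WT-S replicate 3, the WT-S library with the highest member median, 3 were higher, and no share over all genes is given for that fit.

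Whether the effect differed between strains was tested by the interaction. The members' median interaction term was 0.096 with 70 of 78 positive, meaning a larger difference in 3xTg, but 0 were called by edgeR or DESeq2, each of which called 0% of all genes. At an unadjusted p under 0.05, 3 were higher, Ndufa11, Atp5d and Atp5e, or 3.85% against 1.21% of all genes, and 0 were lower against 1.11%. With the trend removed 2 were higher against 1.6% of all genes and 0 lower against 1.11%, with 60 positive and a median of 0.049. Without 3xTg-S replicate 2 and 3xTg-D replicate 2 the median was -0.0037 and none was higher, in a fit for which no share over all genes is given.

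Over both strains, with strain as a term (15 libraries), 76 of 78 members were positive with a median of 0.14, or 1.10-fold. At an unadjusted p under 0.05, 56 were higher (71.8%) against 6.79% of all genes, and 0 were lower against 6.79%. No member was called by edgeR, 0% of all genes being called and the smallest adjusted p being 0.24, whereas the DESeq2 likelihood ratio test called 9 members, among them Ndufb11 (adjusted p = 0.025), Uqcrq, Ndufa4 and Atp5j2 (each adjusted p = 0.039). That test called 0.891% of the 6173 genes it gave an adjusted p, which are those above its own limit on mean counts. With the trend removed 18 were higher against 3.44% of all genes and 1 lower against 4.08%, with a median of 0.050. Without 3xTg-S replicate 2 and 3xTg-D replicate 2, 35 were higher with a median of 0.083, and no share over all genes is given for that fit. Leading members were Ndufb11 (0.23 ± 0.051), Atp5j2 (0.19 ± 0.046), Uqcrq (0.24 ± 0.057), Ndufa4 (0.18 ± 0.045), Atp5k (0.22 ± 0.054) and Cox6b1 (0.20 ± 0.049), all with an adjusted p of 0.24. Ndufs4 was at 0.18 ± 0.046 and kept 0.18 ± 0.044 after trend removal.

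Genes that work beside the members gave smaller shifts in the same comparison, all under edgeR with none called. Shares over all genes at an unadjusted p under 0.05 were 6.79% higher and 6.79% lower. Of 42 assembly factors, 9 were higher at an unadjusted p under 0.05 and none lower, with a median log2 fold change of 0.055, led by Pet100 (0.27 ± 0.066) and Ndufaf3 (0.20 ± 0.057). Of 9 other nuclear proteins of the chain, 3 were higher, led by Atpif1, the inhibitor of ATP hydrolysis by complex V (0.21 ± 0.043, edgeR adjusted p = 0.24), with a median of 0.072. Of 16 enzymes of the tricarboxylic acid cycle, 5 were higher with a median of 0.037. The 8 subunits of the mitochondrial genome that could be tested had a median of 0.031, and none passed an unadjusted p of 0.05 in either direction. Of 13 regulators, Tfam was higher (0.10 ± 0.044), while Esrrg (-0.21 ± 0.059), Yy1 (-0.082 ± 0.038) and Gabpa (-0.13 ± 0.057) were lower at an unadjusted p under 0.05. These 4 transcripts are 2202 to 6178 nt long. With the trend removed, 4 assembly factors (median 0.012), 2 other chain proteins (0.042) and 1 mitochondrial-genome subunit (0.062) were higher. So were 1 enzyme of the cycle (0.019) and 1 regulator, against 3.44% of all genes, and 2 regulators were lower against 4.08%.

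Markers of other cells were read in 3xTg-S against 3xTg-D. At an unadjusted p under 0.05, 5.65% of all genes were higher there and 5.51% lower. Summed oligodendrocyte markers, all 5 detected, ran from 2753 to 4892 CPM in 3xTg-D and from 4717 to 5618 CPM in 3xTg-S, with Mag (0.33 ± 0.11), Mbp and Cnp higher at an unadjusted p under 0.05 and none called. Of the 5 endothelial markers, 2 were higher at an unadjusted p under 0.05 (median 0.15), and of the 5 microglial markers none, with a median of 0.16. Of the 5 astrocyte markers and the 6 neuronal markers, 1 each was lower. Principal neuron markers had none in either direction, with a median of 0.083, and neither had the 4 choroid plexus markers tested. Summed neuronal markers ran from 5568 to 5671 CPM in 3xTg-D and from 5473 to 5700 CPM in 3xTg-S. With the length and GC trend removed, 1 oligodendrocyte and 1 endothelial marker were higher against 3.16% of all genes. Of the lower markers, 1 neuronal marker remained against 2.87%. The part of these cell types in the members' values under SCDi was not tested.

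Under inhibitor, the strains were compared as well. In 3xTg-S against WT-S the members' median was 0.012 with 41 of 78 positive; 3 were higher at an unadjusted p under 0.05 against 5.43% of all genes and 3 lower against 5.18%. With the trend removed the median was -0.031, 3 were higher against 5.76% of all genes and 5 lower (6.41%) against 5.91%. Of the cell markers, the microglial gene C1qa was among those called higher, and 2 principal neuron genes (C1ql2 and Wfs1) were called lower. At an unadjusted p under 0.05, 4 of 5 microglial (median 0.35), 4 of 5 oligodendrocyte (0.24) and 2 of 5 astrocyte markers were higher. By the same rule 3 of 5 principal neuron markers and 1 of 6 neuronal markers were lower. Cox7c was called, where 1.32% of all genes were. It stood at 14.1, 10.9 and 12.2 CPM in WT-S and at 6.54, 7.63, 5.85 and 6.15 CPM in 3xTg-S, with no overlap (-0.92 ± 0.13, adjusted p = 0.0043). Cox7c was thus lower in 3xTg in every pairing of strains, and within 3xTg it was not called between SCDi and vehicle (0.37 ± 0.12, edgeR adjusted p = 0.38). Its near copies Gm10012 and Gm12338 were at or under 1.19 CPM in every library. This does not show how many Cox7c reads went uncounted. Other genes' transcripts hold 50.4% of its windows, and reads from shared stretches can be left out by the counting. The part of shared sequence in the strain difference was not tested.

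In 3xTg-S against WT-D, the comparison of inhibited 3xTg with vehicle WT, 2 members were called, where 2.29% of all genes were. Cox7c was lower (-0.75 ± 0.15, adjusted p = 0.023) and Cox6c higher (0.33 ± 0.076, adjusted p = 0.043). Both calls were fragile: of 14 alternatives, Cox7c was not called in 4 (adjusted p up to 0.078) and Cox6c in 6 (up to 0.15), and neither member was called without 3xTg-S replicate 1 or without replicate 4. Cox7c also lost its call without WT-D replicate 1 or 2, and Cox6c without WT-D replicate 3 or 4 or 3xTg-S replicate 2. Cox6c, another small complex IV subunit (ENSMUSG00000014313.15, chromosome 15, 35925886 to 35938246), was at 150.2, 152, 129.7 and 125 CPM in WT-D and at 171, 195, 164 and 178 CPM in 3xTg-S, with no overlap. It was at 144.2, 144 and 148 CPM in WT-S and at 148, 139.7, 156 and 163 CPM in 3xTg-D, so that the 3xTg-S libraries were the highest of the infused animals. Against WT-S its log2 fold change was 0.28 ± 0.063 with an adjusted p of 0.056, which became 0.028 with the length and GC trend removed; against WT-D the same step gave 0.22 and an adjusted p of 0.15. Among the 78 members of this comparison, 21 had an unadjusted p under 0.05 and a higher level, beside 9.01% of all genes, and 3 had a lower level, beside 7.88%. With the trend removed these were 6 (7.69%) against 7.5% of all genes and 8 (10.3%) against 9.55%. Of the cell markers, the oligodendrocyte gene Mbp and 2 microglial genes (C1qa and Tmem119) were among those called higher here, and 2 principal neuron genes (C1ql2 and Wfs1) lower.

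**Figure D3:**
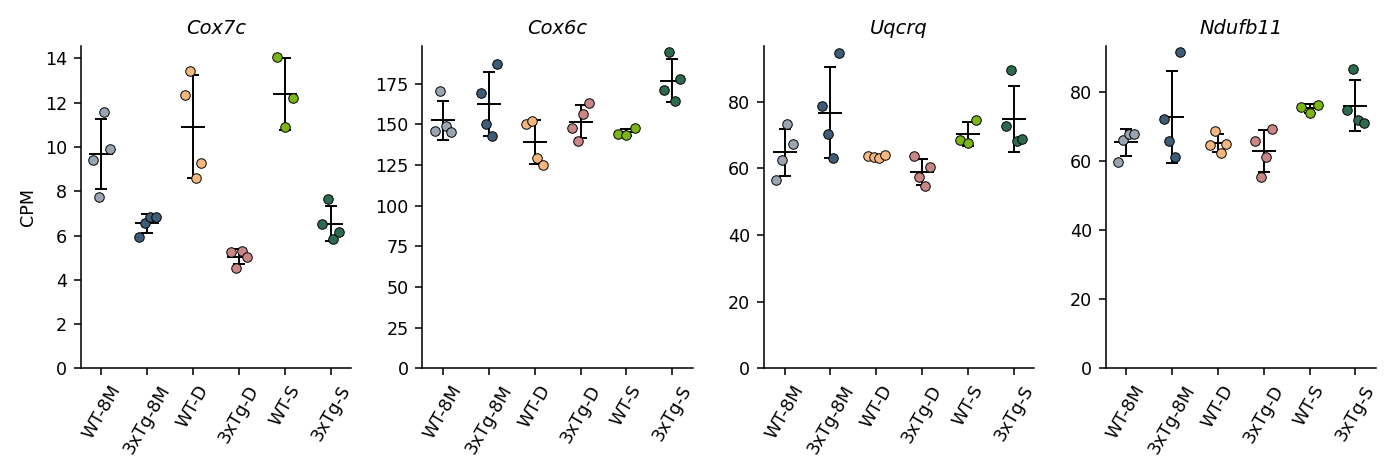
CPM of Cox7c, Cox6c, Uqcrq and Ndufb11 in each library by group, with group mean and SD as bars and axes from 0. Cox7c is lower in every 3xTg group (means 6.55, 5.04 and 6.54 CPM) than in the WT group beside it (9.67, 10.9 and 12.4 CPM).

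Ndufs5, an accessory subunit of complex I (ENSMUSG00000028648.13, chromosome 4, 123712710 to 123718202), had the largest spread of any member and its counts mirrored those of a near copy. The processed pseudogene BC002163 aligned to the Ndufs5 transcript over 319 bases with 2 different bases, and 27.8% of the windows of Ndufs5 occur in it. Ndufs5 was at 1.55, 1.14, 10.7 and 11.4 CPM in WT-8M while BC002163 was at 24.6, 25.6, 12.3 and 13.3 CPM in the same libraries. In 3xTg-8M the values were 11.5, 9.76, 21.2 and 29.2 CPM for Ndufs5 and 14.4, 12, 0.751 and 0.782 CPM for BC002163. All libraries fell in 3 separate ranges of the share that Ndufs5 took of both genes: 4.27% to 5.94% in 2 libraries, 43.2% to 47.0% in 9 and 95.9% to 98.5% in 12.

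The ranges did not follow treatment. At 8 months, animals with consecutive numbers shared a range. WT-8M replicates 1 and 2 were in the lowest and 3xTg-8M replicates 3 and 4 in the highest range. WT-8M replicates 3 and 4 and 3xTg-8M replicates 1 and 2 were in the middle range. Among the infused animals, the middle range held 3xTg libraries only. WT-D and WT-S libraries were all in the highest range, 3xTg-D had replicates 1 and 2 in the highest and 3 and 4 in the middle range, and 3xTg-S had replicate 2 in the highest and the other 3 in the middle range. The sum of both genes varied far less, 25.1 ± 1.66 CPM (SD, n = 4) in WT-8M against 24.9 ± 3.87 CPM (n = 4) in 3xTg-8M. Ndufs5 alone gave a log2 fold change of 1.54 ± 0.61 in this comparison (adjusted p = 0.23), -0.42 ± 0.17 in 3xTg-D against WT-D (adjusted p = 0.33) and -0.66 ± 0.24 in 3xTg-S against WT-S (adjusted p = 0.32). These fold changes cannot be read apart from the division of counts with BC002163, and the cause of that division was not tested.

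**Figure D4:**
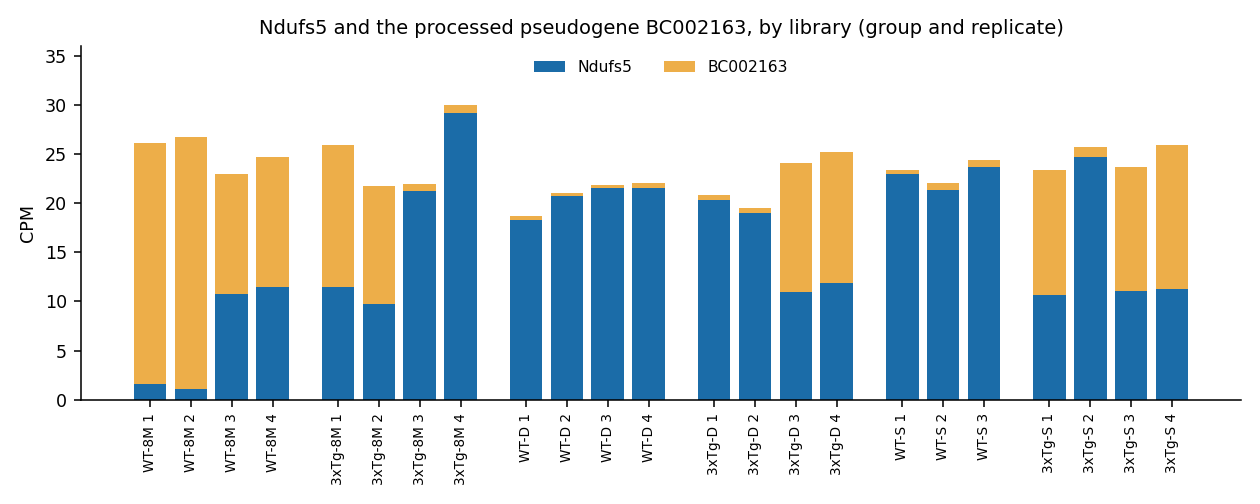
Stacked CPM of Ndufs5 and of the processed pseudogene BC002163 in each of the 23 libraries, labelled by group and replicate. Ndufs5 takes 4.27% to 5.94% of the sum in WT-8M replicates 1 and 2, 43.2% to 47.0% in 9 libraries and 95.9% to 98.5% in 12, while the sum stays between 18.7 and 29.97 CPM.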

How the data were processed

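Hippocampal mRNA of 23 mice was sequenced by the authors (KAPA mRNA HyperPrep, single-end NextSeq500). Reads were trimmed with Trimmomatic 0.35 and aligned with STAR 2.5.1b to GRCm38, and the deposited values are raw counts per gene (Gencode annotation), not normalized. Whether counting used strand is not given in the sources used here. The 4 lines that name no gene entered neither library sizes nor tests (24.7% to 30.9% of counts per library); no column of per-sample values was left out.

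Groups came from the labels, with 1 animal per library. Every comparison used only the libraries of its groups, in edgeR 4.0.16 (TMM, filterByExpr, quasi-likelihood test, Benjamini-Hochberg over all genes tested, called under 0.05), and SE was the log2 fold change over the square root of F. CPM used total gene counts. The SCDi effect over both strains and its interaction with strain used the 15 libraries of 10 months. Transcript lengths came from Gencode M21. Alternatives were DESeq2 size factors, no filter on low counts, the DESeq2 likelihood ratio test, a per-library spline (3 degrees of freedom) on length and GC as an offset, animal numbers in runs of 4 as a blocking term, all libraries in 1 fit, and each library left out. The fits were tested on simulated data with changes larger than the members' median shifts and with no length trend. The simulation says nothing about shifts of the members' size. Part of the 3xTg genotype and the single values of 1 member and 1 marker gene are not reported here. The members and gene lists were chosen with earlier results of these data known, so no p-value is given over the members as a list. Named genes were called members, the smallest p per complex, the largest fold changes, the highest and lowest levels, core subunits and isoform sets. Ndufs4, Ndufv2, Uqcr11, BC002163, Gm6969 and the copies of Cox7c were singled out after their values were seen.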

Additional observations from a re-analysis of the deposited data

Results flagged for a closer look

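In groups of 4 libraries, 1 library stood far from the other 3 in 8 of 125 groups examined, a gap test that chance passes in about 1 of 20 groups. In 3xTg-S, replicate 2 stood above the others in the members' median (0.28), in Ndufs7 (67.4 CPM) and in Ndufs5 (24.7 CPM). In 3xTg-8M, replicate 4 stood above the others in Ndufs7 (69.3 CPM) and Uqcrb (62.9 CPM), and in 3xTg-D, replicate 2 stood below them in Uqcrb (41.5 CPM). In WT-8M, Cox6c was high in replicate 2 (170.3 CPM) and Atp5j2 was low in replicate 1 (98.5 CPM).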

How the results depend on the processing

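The counts of members rest on small differences, and removing the length and GC trend or leaving out single libraries moved many of them. The members' median turned negative at 8 months without 3xTg-8M replicate 4, and for the interaction without 3xTg-S replicate 2 and 3xTg-D replicate 2 together. Of the single-gene values, 607 kept their side of the threshold, 17 lost a call and 10 gained 1. Most of the 607 were called in neither fit, so they say little about the calls. All 17 losses were of Cox7c or Cox6c. Cox7c lost its call in 7 of 13 alternatives at 8 months and in 4 of 14 in 3xTg-S against WT-D. Cox6c lost its call in 6 of 14 in 3xTg-S against WT-D. Cox7c kept its call in all 14 in 3xTg-D against WT-D and all 13 in 3xTg-S against WT-S. The member list held 82 genes at a mean above 1 CPM and 76 above 10 CPM.

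With no filter on low counts, members called were 2 in 3xTg-8M against WT-8M (11 higher and 2 lower, counted by an unadjusted p under 0.05), 2 for vehicle 3xTg against vehicle WT (1 higher), 2 in 3xTg-S against 3xTg-D, 4 in 3xTg-S against WT-S, 5 in 3xTg-S against WT-D and 4 for SCDi over both strains, and 6 were higher in WT-S against WT-D. The DESeq2 likelihood ratio test called 2 in 3xTg-D against WT-D, 2 in 3xTg-S against WT-S and 9 for SCDi over both strains. In the last it called 0.891% of the 6173 genes it gave an adjusted p. By the same test 8 members were higher in WT-S against WT-D. For its other counts, no filter, 1 fit, the block and libraries left out, no share over all genes is given. Such counts show how far the members' numbers moved, not whether members moved more than other genes. With the trend removed, 8 were higher at 8 months, 1 in 3xTg-D against WT-D, 15 in 3xTg-S against 3xTg-D (median 0.065), 6 in WT-S against WT-D (2 lower, median 0.029), and 18 for SCDi over both strains (1 lower, median 0.050); 2 were called and 5 lower in 3xTg-S against WT-S, and 1 was called, 6 higher and 8 lower in 3xTg-S against WT-D. All 23 libraries in 1 fit gave 10 higher at 8 months, 4 lower in 3xTg-D against WT-D, 1 higher in WT-S against WT-D and 9 higher in 3xTg-S against WT-D. The block for animal numbers gave 11 higher in WT-S against WT-D. Without 3xTg-S replicate 2 and 3xTg-D replicate 2 together, an alternative chosen after seeing the data, 15 were higher in 3xTg, 35 over both strains, and the interaction had 0 higher, 1 lower and a median of -0.0037.

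Leaving out each library in turn gave, at 8 months, 0 to 1 called, 0 to 10 higher, 1 to 3 lower and a median of -0.013 to 0.16. In 3xTg-D against WT-D it gave 0 to 2 higher, 10 to 24 lower and a median of -0.11 to -0.054. In 3xTg-S against 3xTg-D it gave 24 to 58 higher, 0 to 1 lower and a median of 0.11 to 0.21, and in WT-S against WT-D 3 to 16 higher with a median of 0.061 to 0.11. In 3xTg-S against WT-S it gave 1 to 2 called, 1 to 4 higher, 2 to 9 lower and a median of -0.048 to 0.051, and in 3xTg-S against WT-D 0 to 2 called, 8 to 30 higher, 2 to 5 lower and a median of 0.055 to 0.12. Over both strains it gave 42 to 58 higher with a median of 0.096 to 0.15, and for the interaction 0 to 6 higher, 0 to 1 lower and a median of 0.029 to 0.13. The cause of these shifts was not tested.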
